A study of Mus musculus with 8 samples.

Results

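Extracellular ATP signals through P2X ion channels and P2Y receptors, and surface enzymes break it down to adenosine. The 10 genes described here cover these steps: the ATP-gated channel subunits P2rx1, P2rx4 and P2rx7, the G protein-coupled nucleotide receptors P2ry2, P2ry6, P2ry12 and P2ry14, the ectonucleotidases Entpd1 and Nt5e, and the adenosine receptor Adora2b. They were taken by gene symbol, and all 10 had a row in each of the 2 tables, which list 18645 genes for the stellate cells and 17408 for the macrophages.

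The study compared vehicle with auranofin, an oral gold compound, in 8 libraries of poly(A) RNA from C57BL/6 mouse cells. Auranofin has been described as an inhibitor of thioredoxin reductase. The study reported that the macrophages and stellate cells lack this enzyme and named the cystine-glutamate antiporter system Xc as the primary target. Activated hepatic stellate cells (AHSC) came from liver by perfusion and a density gradient, with no sorting step given, and were controls (n = 2; untreated by the labels, vehicle by a legend) or given 0.03 µM auranofin for 12 h (n = 2). Bone marrow-derived macrophages (BMDM), differentiated with M-CSF from the marrow of 8-week-old males, all received LPS at 100 ng/mL and ATP at 1 mM, without (n = 2) or with auranofin (n = 2). The labels give 0.1 µM auranofin for the BMDM, while a legend gives 0.3 µM, so the dose in these libraries is uncertain. The study's text gives an exposure of 1 h for the BMDM. No source says whether the replicates were separate cultures, so each p-value measures a spread between libraries that may be technical.

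ATP leaves damaged or stimulated cells and opens P2X7, which lets potassium out of the macrophage and starts NLRP3 inflammasome assembly and IL-1β release. ATP is also the second signal that was added to every BMDM library. CD39, the product of Entpd1, converts ATP and ADP to AMP, and CD73, the product of Nt5e, converts AMP to adenosine, which dampens inflammation through the receptors encoded by Adora2a and Adora2b. In the liver, Kupffer cells, endothelial cells and stellate cells each carry some of these receptors and enzymes.

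Several of the genes lie side by side in the mouse genome (GRCm38.p6, the RefSeq equivalent of mm10). P2rx7 (chr5:122643927-122692336) ends 15.2 kb before P2rx4 (chr5:122707518-122729739), on the same strand. P2ry6 and P2ry2 are separated by 21.1 kb on chromosome 7, and P2ry14 and P2ry12 by 62.8 kb on chromosome 3, with the related receptor gene P2ry13 between them. Entpd1 lies on chromosome 19, Nt5e on chromosome 9, and Adora2b and P2rx1 on chromosome 11.

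Start-site windows, 250 bases before to 50 bases after the start of an annotated transcript, were found in the RefSeq table for 9 of the 10 genes, all but P2ry6. Where a gene had several windows, only the most upstream was used. P2ry14 had 4, and P2rx7, P2ry2 and Entpd1 had 2 each. For P2rx4 and P2rx1 that start lay inside the gene's interval and not at its first base. The neighbours P2rx7 and P2rx4 are printed because they are adjacent and their transcripts stood at unlike levels, and P2ry14, Adora2b and P2ry2 because they moved furthest in 1 auranofin library of the BMDM. The windows are P2rx7 chr5:122643677-122643976 (plus strand), P2rx4 chr5:122707294-122707593 (plus), P2ry14 chr3:59153443-59153742 (minus), Adora2b chr11:62248734-62249033 (plus) and P2ry2 chr7:101012004-101012303 (minus). Each is written 5′ to 3′ on the gene's own strand. Capitals mark matches, on either strand, to AP-1 (TGANTCA), the antioxidant response element (TGACNNNGC), the GC box (GGGCGG) or a heat shock element (GAANNTTC).
P2rx7: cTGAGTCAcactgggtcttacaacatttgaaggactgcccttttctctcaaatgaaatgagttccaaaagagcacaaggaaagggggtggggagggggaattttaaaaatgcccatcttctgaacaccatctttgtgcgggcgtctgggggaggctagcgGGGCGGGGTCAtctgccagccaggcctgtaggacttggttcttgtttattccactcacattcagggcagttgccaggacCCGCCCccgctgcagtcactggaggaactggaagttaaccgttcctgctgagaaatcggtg
P2rx4: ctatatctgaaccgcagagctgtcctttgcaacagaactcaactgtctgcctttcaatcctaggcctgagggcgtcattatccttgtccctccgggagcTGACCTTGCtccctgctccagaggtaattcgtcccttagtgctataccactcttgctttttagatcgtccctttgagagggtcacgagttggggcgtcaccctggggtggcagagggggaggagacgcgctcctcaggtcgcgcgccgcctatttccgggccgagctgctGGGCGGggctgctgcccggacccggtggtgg
P2ry14: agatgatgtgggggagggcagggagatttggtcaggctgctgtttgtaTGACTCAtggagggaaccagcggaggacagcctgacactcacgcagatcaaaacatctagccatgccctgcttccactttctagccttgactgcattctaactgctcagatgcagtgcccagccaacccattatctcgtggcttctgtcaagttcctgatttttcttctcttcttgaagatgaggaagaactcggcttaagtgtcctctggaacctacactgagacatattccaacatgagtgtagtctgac
Adora2b: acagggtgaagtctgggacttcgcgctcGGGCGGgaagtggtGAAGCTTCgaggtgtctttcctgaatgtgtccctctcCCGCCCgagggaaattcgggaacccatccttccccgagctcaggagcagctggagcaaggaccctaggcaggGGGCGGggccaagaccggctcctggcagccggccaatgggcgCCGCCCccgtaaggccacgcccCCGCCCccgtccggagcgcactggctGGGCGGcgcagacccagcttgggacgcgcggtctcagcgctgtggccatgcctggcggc
P2ry2: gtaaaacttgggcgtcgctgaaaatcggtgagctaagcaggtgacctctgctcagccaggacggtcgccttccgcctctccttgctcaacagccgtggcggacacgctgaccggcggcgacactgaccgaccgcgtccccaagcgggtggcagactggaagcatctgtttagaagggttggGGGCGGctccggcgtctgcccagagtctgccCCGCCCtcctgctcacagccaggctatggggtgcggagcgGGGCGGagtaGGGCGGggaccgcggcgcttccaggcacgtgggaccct

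The P2rx7 window held 1 AP-1 match, 2 GC boxes and 1 antioxidant response element match that overlapped the first GC box, with 8 CpG dinucleotides. P2rx4 held 1 antioxidant response element match and 1 GC box, with 18 CpG. In P2ry14 a single AP-1 match stood alone in a window with 4 CpG and 49.3% G or C. Adora2b (70.0% G or C, 27 CpG) had 6 GC boxes and 1 heat shock match, and P2ry2 (67.3%, 28 CpG) had 4 GC boxes. Of the 5 windows, the one of P2ry14, which had the lowest CpG count, was also the only one without a GC box.

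Among 32851 RefSeq windows of the same length, 7.81% held an AP-1 match, 12.4% an antioxidant response element match, 35.7% a GC box and 7.86% a heat shock match. In the 9 windows of the gene set these motifs were found in 2, 3, 5 and 1. The 32851 windows include every annotated start of a gene, while the 9 are the most upstream start of each, so the shares are not strictly alike. An NF-κB match, searched by its consensus, occurred in 1 of the 9 (P2ry12) and in 8.46% of all windows, and TATAAA in none of the 9 and in 13.6% of all. These are letter matches in short windows and say nothing on whether a factor binds.

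Sequencing depth lay between 27.5 and 39.4 M fragments per library, if the most frequent product of FPKM and transcript length is 1 fragment. That product was taken among values under 0.2 FPKM, and the assumption was not checked against read counts. FPKM (fragments scaled to transcript length and to the library's total) allows genes to be compared within a table, but the tables were normalized separately, so levels in AHSC and BMDM are only set side by side. Of the BMDM libraries, auranofin replicate 1 stood apart: 368 and 377 of 4245 genes at 10 FPKM or more differed at least 2-fold between it and the control replicates, whereas auranofin replicate 2 differed from them in 15 and 12, and the controls from each other in 14. Hmox1, an oxidative stress gene, was listed at 82.7 and 86.7 FPKM in the BMDM controls, 4403 in auranofin replicate 1 and 85.3 in auranofin replicate 2. By these values auranofin replicate 2 could not be told from a control library, and whether it was exposed is uncertain. It is kept in its labelled group, so auranofin and treated name the label only, and each BMDM fit averages a library that differed from the controls with one that did not. Values of the 10 genes in BMDM are given per library below, and those fitted also with and without each auranofin library.

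The cell labels were checked against marker lists because most of these receptors are best known from myeloid cells. All 12 stellate or fibroblast markers reached 1 FPKM in AHSC, and so did all 10 macrophage markers. Macrophage markers summed to 6663 to 6725 FPKM in the AHSC controls and to 7119 to 7266 in the BMDM controls. Stellate markers summed to 3547 to 3721 in the AHSC controls. Most of the AHSC macrophage sum was a single gene, Lyz2, at 5519 and 5554 FPKM in the controls, beside 3743 and 3625 in BMDM. The sums therefore do not rank the cell types, and single macrophage markers differed between the tables. Adgre1 averaged 109 FPKM in the AHSC and 409 in the BMDM controls, Cd14 46.2 and 471, and Fcgr1 4.37 and 335. Cd68, Itgam, Ptprc and Aif1 were also lower in the AHSC controls. Csf1r (191 and 165), Mrc1 (87.6 and 56.6) and Lyz2 were higher there. In BMDM 11 of the 12 stellate markers had a row and summed to 5.56 to 10.8 FPKM. Col1a1 (1.59 to 2.87 FPKM) and Col1a2 (1.86 to 4.35) were the 2 that averaged 1 FPKM or more there, and Des, Hand2, Lum, Pdgfra and Reln averaged under 0.1 over the 4 libraries. T or NK cell and B cell markers summed to under 0.2 FPKM in every library. All 7 endothelial markers also reached 1 FPKM in AHSC, with a sum of 184 to 190 in the controls. A receptor level in the AHSC libraries is thus the level of a culture that carried stellate, macrophage and endothelial markers.

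With auranofin the AHSC macrophage markers summed to 6499 to 6549 FPKM (9 of 10 lower on average), the stellate markers to 3100 to 3232 (9 of 12 lower) and the Kupffer cell markers to 2308 to 2447, above the 2201 to 2223 of the controls. The endothelial sum was 182 to 194 with auranofin, while Stab2 went from 20.7 and 21.5 to 15.9 and 16.3 FPKM, Clec4g from 20.2 and 20.4 to 15.2 and 14.2, and Cdh5 from 71.8 and 68.0 to 79.7 and 74.2. Neutrophil markers summed to 19.1 and 6.99 FPKM in the controls and 6.50 and 81.0 with auranofin. Whether these shifts had a part in the receptor values was not tested. In bulk RNA, fewer cells of a type and less RNA per cell cannot be told apart.

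P2rx4, which encodes a channel of the plasma membrane and lysosomes, was the most abundant of the 10 transcripts in both tables. Its control mean was 73.5 ± 2.13 FPKM (SD, n = 2) in AHSC, above 95% of the genes listed, and 114 ± 1.81 in BMDM, above 96.2%. In AHSC the control order continued with P2ry14 (45.6), P2ry6 (28.4), Entpd1 (23.9), P2rx7 (12.7), P2ry2 (5.66), Adora2b (4.50), Nt5e (4.21), P2ry12 (1.65) and P2rx1 (0.481 FPKM). Only Adora2b and Nt5e were neighbours whose control libraries overlapped.

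The BMDM control order was P2rx4, P2ry6 (41.2), P2ry14 (29.8), Adora2b (20.3), P2ry2 (15.8), Entpd1 (14.1), P2rx7 (4.19), P2ry12 (2.70), P2rx1 (0.108) and Nt5e (0.0152 FPKM), and no neighbours overlapped. Set side by side, the genes that make and sense adenosine stood at unlike levels in the tables. Nt5e, which makes adenosine from AMP, was at 3.98 and 4.45 FPKM in the AHSC controls and was listed at 0 and 0.0304 in those of BMDM, and Adora2b, which senses adenosine, was at 4.50 ± 0.271 and 20.3 ± 0.338. Levels between the tables were not tested.

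**Figure D1:**
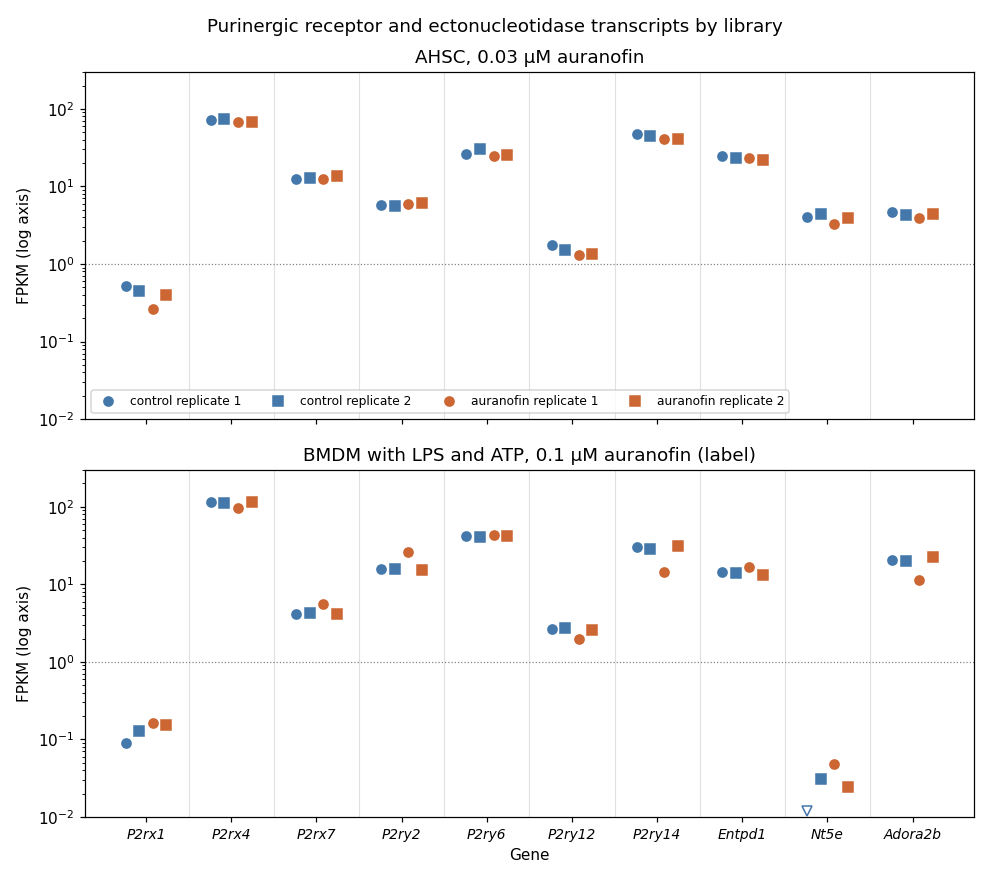
FPKM of the 10 genes on a log axis, with 1 point per library for AHSC (top) and BMDM (bottom), controls in blue and auranofin in orange, replicate 1 as circles and replicate 2 as squares. The dotted line is 1 FPKM and the open triangle marks Nt5e listed at 0 in BMDM control replicate 1. P2rx4 was highest in both, at 67.0 to 75.0 FPKM in AHSC and 97.8 to 116 in BMDM.

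For the test, each table was fitted with limma on log2(FPKM + 1), keeping genes that averaged 1 FPKM or more in its 4 libraries, and a gene was called at a Benjamini-Hochberg adjusted p under 0.05 over all genes fitted. This kept 9 of the 10 genes in AHSC (not P2rx1) and 8 in BMDM (not P2rx1 or Nt5e). Fold changes below are on that scale, which understates the change of genes at low FPKM.

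No gene of the set was called in AHSC after 12 h of auranofin. Of all 12149 genes fitted, 283 (2.33%) were called, and 70 (0.576%) were at least 1.5-fold changed with an unadjusted p under 0.05, again none of the set. An unadjusted p under 0.05 was found for 2 of the 9 genes, P2rx4 and P2ry14, against 17.8% of all genes. The median log2 fold change of the 9 was -0.12, with 7 lower and 2 higher, beside 0.00 for all genes. Each of the 9 values lay between -0.20 and 0.08.

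Among the channels in AHSC, P2rx4 was at 72.0 and 75.0 FPKM in the controls and 68.0 and 67.0 with auranofin. Both treated libraries lay under both controls, and the log2 fold change was -0.12 (SE 0.04, limma adjusted p = 0.179). P2rx7, the inflammasome-linked channel, was at 12.6 and 12.8 FPKM in the controls and 12.4 and 13.5 with auranofin. Its groups overlapped, with a log2 fold change of 0.02 and a 95% interval from -0.11 to 0.15. P2rx1, best known from platelets and smooth muscle, stood at 0.520 and 0.442 FPKM against 0.265 and 0.396, under the level fitted.

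Of the P2Y receptors in AHSC, P2ry14, which responds to UDP-glucose and other UDP-sugars, was at 47.1 and 44.1 FPKM in the controls and 41.3 and 40.8 with auranofin. Both treated libraries were lower, by a log2 fold change of -0.15 (SE 0.04, limma adjusted p = 0.173). P2ry6, the UDP receptor, was at 26.1 and 30.8 FPKM in the controls and 24.5 and 25.1 with auranofin, also without overlap (log2 -0.19, SE 0.08, limma adjusted p = 0.290). The 2 controls of P2ry6 were further apart than control replicate 1 was from either treated library. Without control replicate 1, P2ry6 was called, at a log2 fold change of -0.30 (limma adjusted p = 0.0185), in a fit that called 493 genes.

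P2ry12, the ADP receptor of microglia and platelets, was low in AHSC, at 1.76 and 1.53 FPKM in the controls and 1.29 and 1.33 with auranofin (log2 -0.20, limma adjusted p = 0.290). P2ry2, which responds to ATP and UTP, was the one gene of the set with both treated AHSC libraries above both controls, at 5.96 and 6.10 FPKM against 5.68 and 5.64. Its log2 fold change of 0.08 (SE 0.05) had a limma adjusted p of 0.474. Among platelet markers, Itga2b was at 1.01 and 1.11 FPKM in the controls and 1.09 and 1.10 with auranofin, and Ppbp, Gp9 and Gp1ba stayed under 1 FPKM. Pf4, at 27.8 to 31.6 FPKM, was also at 167 to 194 in BMDM.

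The hydrolysis and adenosine genes in AHSC also stayed under the threshold. Entpd1 was at 24.3 and 23.4 FPKM in the controls and 23.5 and 21.7 with auranofin, with overlapping groups (log2 -0.08, limma adjusted p = 0.484). Nt5e, also a surface marker of mesenchymal cells, was at 3.98 and 4.45 against 3.26 and 3.88 FPKM, without overlap (log2 -0.19, SE 0.09, limma adjusted p = 0.337). Adora2b was at 4.70 and 4.31 against 3.92 and 4.43 FPKM, with overlap (log2 -0.09, limma adjusted p = 0.582).

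Counted over the 9 genes fitted in AHSC, the treated libraries lay wholly under the controls for 5 genes and wholly above for 1, and overlapped for 3. P2rx1, which was not fitted, also lay wholly under its controls. Such separation was common in this table: 50.1% of all genes fitted showed it in one direction or the other.

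In BMDM no gene of the set was called either, and none had an unadjusted p under 0.05. The background was low in this table, with 1 of 9232 genes called (0.0108%), 14 (0.152%) at least 1.5-fold changed with an unadjusted p under 0.05, and 0.531% at an unadjusted p under 0.05. The 8 fitted genes had a median log2 fold change of -0.03, with 4 higher and 4 lower, beside 0.09 for all genes. The auranofin replicates stood apart from each other for most of the 8 genes, with replicate 2 close to the controls.

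P2ry14 was at 30.7 and 29.0 FPKM in the BMDM controls, 14.2 in auranofin replicate 1 and 31.1 in auranofin replicate 2. One treated library was thus below and the other above both controls, and the log2 fold change of -0.48 had an SE of 0.39 and an interval from -1.57 to 0.61. Adora2b followed the same course, at 20.6 and 20.1 FPKM in the controls, 11.3 in replicate 1 and 22.7 in replicate 2 (log2 -0.32, interval -1.29 to 0.65). P2ry2 went the other way, at 16.0 and 15.6 FPKM in the controls, 26.4 in replicate 1 and 15.5 in replicate 2 (log2 0.34, interval -0.43 to 1.12).

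These 3 were the only genes of the set past 1.5-fold from the control mean in auranofin replicate 1, of 8 fitted, in a library where 23.2% of all genes were. In replicate 2 none of the 8 was past 1.5-fold, against 0.661% of all genes. Relative to the control mean on the log2 scale, replicate 1 stood at -1.02 for P2ry14, -0.79 for Adora2b and 0.71 for P2ry2, and replicate 2 at 0.06, 0.15 and -0.02.

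**Figure D2:**
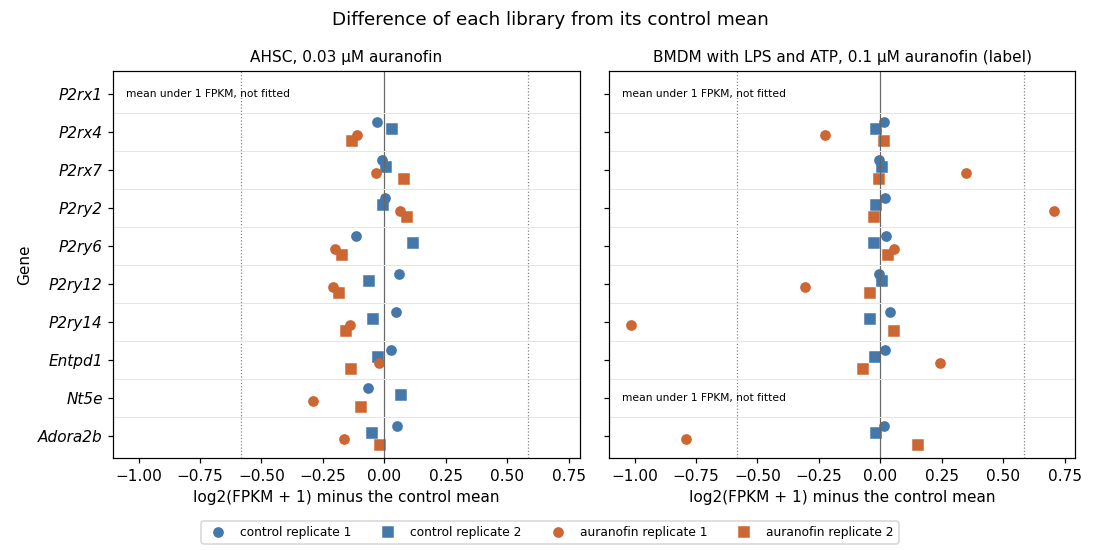
Each library's log2(FPKM + 1) minus the mean of its 2 controls, for the genes fitted in AHSC (left) and BMDM (right); dotted lines mark 1.5-fold. In AHSC every point lies inside the lines, and in BMDM only auranofin replicate 1 crosses them, for P2ry2, P2ry14 and Adora2b.

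The channels shifted less in BMDM. P2rx7 was at 4.17 and 4.22 FPKM in the controls, 5.62 in auranofin replicate 1 and 4.18 in replicate 2 (log2 0.17, SE 0.17, limma adjusted p = 0.721). P2rx4 was at 116 and 113 FPKM in the controls, 97.8 in replicate 1 and 116 in replicate 2 (log2 -0.10, SE 0.13, limma adjusted p = 0.744). P2rx7 thus had its highest value, and P2rx4 its lowest, in the same library. The ratio of P2rx4 to P2rx7 FPKM was 27.8 and 26.8 in the controls, 17.4 in auranofin replicate 1 and 27.7 in replicate 2. In AHSC that ratio of the neighbouring genes was 5.70 and 5.87 in the controls and 5.49 and 4.97 with auranofin.

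P2ry6 had the smallest fitted change of the 8 genes in BMDM, at 42.0 and 40.5 FPKM in the controls and 42.9 and 42.1 with auranofin, a log2 fold change of 0.04 with an interval from -0.24 to 0.33 that turned to -0.050 when each library was centred on its median. Only 9.0% of the genes fitted differed by less in replicate 1. The adjacent gene P2ry2 was one of the 3 past 1.5-fold in the same library. The ratio of P2ry6 to P2ry2 FPKM was 2.63 and 2.6 in the controls, 1.63 in replicate 1 and 2.72 in replicate 2.

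P2ry12 was at 2.69 and 2.72 FPKM in the BMDM controls and 2.0 and 2.59 with auranofin, with both treated libraries lower (log2 -0.17, SE 0.15, limma adjusted p = 0.721). Entpd1 was at 14.3 and 13.8 FPKM in the controls and 16.8 and 13.3 with auranofin, on either side of the controls (log2 0.09, or -0.0063 after centring, limma adjusted p = 0.80). P2rx1 was listed at 0.0891 and 0.127 FPKM against 0.164 and 0.153, and Nt5e at 0 and 0.0304 against 0.0479 and 0.0243, both too low to read a change from. Of the 8 genes fitted in BMDM, the groups did not overlap for P2ry6 (higher) and P2ry12 (lower), where 38.8% of all genes fitted did not overlap. P2rx1, which was not fitted, was higher without overlap.

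**Figure D3:**
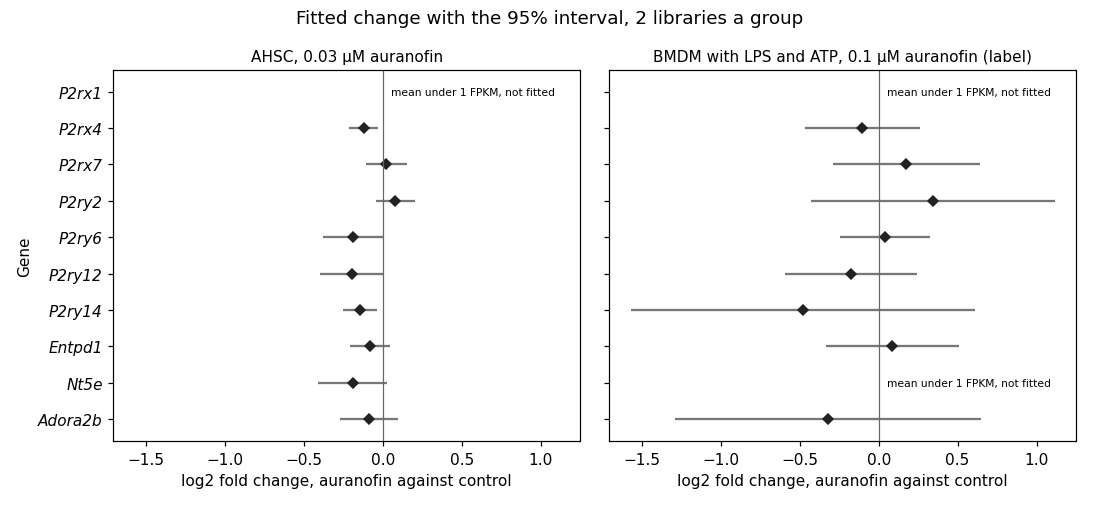
Fitted log2 fold change with auranofin (diamonds) and its 95% interval (lines) from limma, 2 libraries against 2, for AHSC (left) and BMDM (right). The AHSC values lie between -0.20 and 0.08 with narrow intervals, while in BMDM the interval of P2ry14 runs from -1.57 to 0.61.

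How much a BMDM value rests on 1 library was seen by leaving each auranofin library out. Without replicate 1 no gene of the set was called, in a fit that called 13 of the 9232 genes, and 6 of the 8 fitted values changed sign, to 0.06 for P2ry14, 0.15 for Adora2b and -0.02 for P2ry2. Without replicate 2, which leaves replicate 1 alone and assumes it varies as the controls do, 7 of the 8 genes were called (3 higher, 4 lower), in a fit that called 5997 of the 9232 genes. Neutrophil markers summed to 169 to 178 FPKM in the BMDM controls and 232 to 246 in both auranofin libraries, and macrophage markers to 8047 in replicate 1 and 7194 in replicate 2. Their part in the receptor values was not tested.

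Beyond the 10 genes, 34 other genes of nucleotide and adenosine handling were examined: further receptors, enzymes that hydrolyse nucleotides or remove adenosine, and channels or transporters that release ATP. In AHSC 31 had a row and 20 were fitted, none was called, and 5 had an unadjusted p under 0.05 (17.8% of all genes), with a median log2 fold change of -0.02 (9 higher, 11 lower). Enpp3, an ectonucleotide pyrophosphatase, was the nearest to a call: 9.50 and 9.01 FPKM in the controls and 11.8 and 11.2 with auranofin (log2 0.28, SE 0.05, limma adjusted p = 0.0590). Gja1, encoding connexin 43 of ATP-releasing hemichannels, was at 18.7 and 18.0 FPKM against 18.5 and 17.6, and Pnp, a purine nucleoside phosphorylase, at 38.1 and 39.9 against 36.9 and 37.7. Of the other receptors, P2ry13 was at 4.27 and 3.40 FPKM against 3.80 and 4.08, the channel subunit gene P2rx5 at 1.62 and 1.96 against 1.80 and 1.74, and Adora2a at 1.32 and 1.78 against 1.41 and 1.38.

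In BMDM 29 of the 34 had a row and 13 were fitted. None was called or had an unadjusted p under 0.05. The median log2 fold change was 0.07 (8 higher, 5 lower). Without auranofin replicate 1 that median turned to -0.04 (5 higher, 8 lower), and without replicate 2 it was 0.10 (9 higher, 4 lower). Auranofin replicate 1 was past 1.5-fold for 5 of the 13, in a library where 23.2% of all genes were, and replicate 2 for none, against 0.661%. The adenosine receptor gene Adora2a was at 61.4 and 64.6 FPKM in the controls, 34.8 in replicate 1 and 65.3 in replicate 2. P2ry13, an ADP receptor, was at 9.40 and 9.20, then 2.09 and 8.39 FPKM. Gja1 was at 4.01 and 2.91, then 15.7 and 2.96 FPKM. In replicate 1 both adenosine receptors fitted, Adora2a and Adora2b, were thus lower, and so were P2ry14, P2ry13 and, by less, P2ry12 of chromosome 3.

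The other 2 of the 5, named after their values were seen, were the ATP release channel Panx1, at 1.13 and 1.17 FPKM in the controls, 7.58 in replicate 1 and 0.893 in replicate 2, and the nucleoside carrier Slc28a2, at 221 and 209, then 43.8 and 212 FPKM. Pnp was at 412 and 407 FPKM in the controls and 305 and 414 with auranofin, and Enpp1 at 1.23 and 1.24 against 1.40 and 1.14. P2rx5 was under the level fitted, at 0.256 and 0.350 FPKM against 0.322 and 0.0633. The limma adjusted p in BMDM was 0.721 for Adora2a, P2ry13, Gja1, Panx1 and Slc28a2 alike. In AHSC Panx1 was at 7.55 and 7.65 FPKM in the controls and 11.2 and 9.08 with auranofin (log2 0.36, limma adjusted p = 0.122). Slc28a2 was there at 5.35 and 5.11 against 3.87 and 4.61 FPKM (log2 -0.25, limma adjusted p = 0.197).

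**Figure D4:**
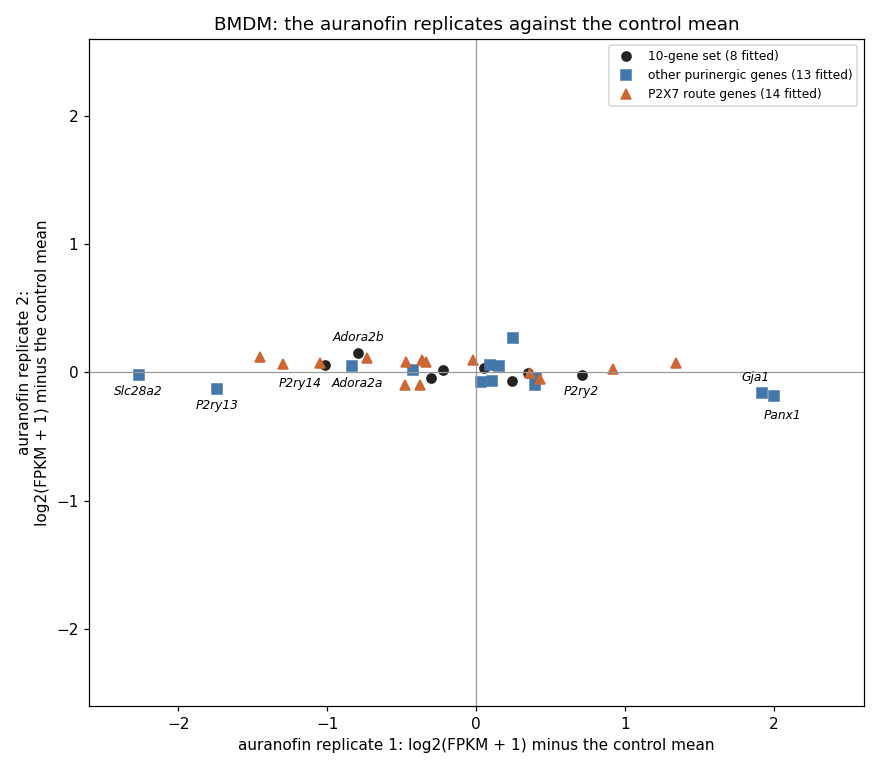
BMDM genes placed by log2(FPKM + 1) minus the control mean in auranofin replicate 1 (horizontal) and replicate 2 (vertical), on equal scales, for the 10-gene set, the other purinergic genes and the P2X7 route genes that were fitted. Points spread from -2.27 (Slc28a2) to 2.0 (Panx1) along replicate 1 and stay between -0.18 and 0.27 along replicate 2.

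The 14 genes of the route that starts at P2X7, from potassium efflux to NLRP3, caspases, gasdermin D and the IL-1 family, were fitted in both tables. In AHSC 2 of the 14 were called, beside 2.33% of all genes, and 10 of the 14 had an unadjusted p under 0.05, beside 17.8%. The list was chosen with earlier results of these data known, so these shares are no test of the route. Their median log2 fold change was -0.09 (6 higher, 8 lower). Il1rn, the IL-1 receptor antagonist, fell from 61.4 and 59.8 FPKM to 35.6 and 41.5 (log2 -0.64, SE 0.07, limma adjusted p = 0.0165), and Ninj1, which ruptures the membrane of dying cells, rose from 127 and 129 to 177 and 162 (log2 0.40, SE 0.05, limma adjusted p = 0.0197). Neither is a component of the inflammasome itself. No gene of the 14 was called when low genes were kept, in a fit that called 49 of 18645 genes. None was called when the variance trend was left out either, in a fit that called 129 of 12149. Without moderation 0 of all 12149 genes were called, so that fit says nothing on these 14. In BMDM none of the 14 was called, and the median was -0.16 (5 higher, 9 lower). Without auranofin replicate 1 that median turned to 0.08 (10 higher, 4 lower), and without replicate 2 it was -0.37 (4 higher, 10 lower). Replicate 1 was past 1.5-fold for 6, beside 23.2% of all genes in that library, and replicate 2 for none, beside 0.661%.

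With 2 libraries a group, an exact permutation test of a single gene cannot go under p = 0.333. In BMDM a missing call carries little information, since the interval of P2ry14, for example, holds both a fall of over 2-fold and a rise.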

How the data were processed

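RNA-seq libraries (TruSeq Stranded mRNA) were deposited as 2 tables of FPKM values per gene, which the authors made with HISAT2 2.1.0 and StringTie 1.3.4d on mm10 after Trimmomatic 0.38, per the labels and submitters' processing notes. Whether counting used strand is not given in the sources used here. Each table was fitted alone with limma 3.58.1 (R 4.3.3; lmFit, eBayes with trend) on log2(FPKM + 1), for genes averaging 1 FPKM or more, and p-values were adjusted by Benjamini-Hochberg over all genes fitted. The fit was tested on simulated data. Alternatives were a pseudocount of 0.1, no filter or a mean of 5 FPKM, quantile or median scaling, other moderation, a replicate block, a 1.5-fold call rule and leaving out each library. Named beside the 10 genes are those called in the gene lists, the highest gene of each role and, after their values were seen, Panx1 and Slc28a2. The 10 genes, lists and markers were chosen with earlier results of these data known. Coordinates and start-site windows are from RefSeq (GRCm38.p6). Figures were drawn with matplotlib 3.10.9.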

Additional observations from a re-analysis of the deposited data

Results flagged for a closer look

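For 2 of the 10 genes the treated libraries lay on opposite sides of their controls in the cell types. Separation in either direction was common, at 50.1% of all genes fitted in AHSC and 38.8% in BMDM. The share of all genes with opposite sides was not counted. P2rx1 had a mean of 0.331 FPKM with auranofin against 0.481 in the AHSC controls, and 0.159 against 0.108 in BMDM, all under 1 FPKM. By library it was at 0.0891 and 0.127 in the BMDM controls and 0.164 and 0.153 with auranofin, too low to read a change from. P2ry6 had a mean of 24.8 FPKM with auranofin against 28.4 in AHSC, and 42.5 against 41.2 in BMDM. By library the BMDM values were 42.0 and 40.5 in the controls and 42.9 and 42.1 with auranofin. The fitted change of P2ry6 in BMDM turned to -0.050 when each library was centred on its median. Whether the changes differ between AHSC and BMDM was not tested: the tables were normalized apart, with unlike doses and times.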

How the results depend on the processing

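Of 199 log2 fold changes of the fitted genes recomputed under the alternatives, 9 changed sign, 1 in AHSC and 8 in BMDM. In AHSC, P2rx7 ranged from -0.035 without auranofin replicate 2 to 0.079 without replicate 1. In BMDM, the value without auranofin replicate 2 and then without replicate 1 was -0.22 and 0.016 for P2rx4, 0.35 and -0.0043 for P2rx7, 0.71 and -0.024 for P2ry2, -1.02 and 0.056 for P2ry14, 0.24 and -0.070 for Entpd1, and -0.79 and 0.15 for Adora2b. For P2ry12 these 2 values were -0.31 and -0.044, and for P2ry6 they were 0.054 and 0.030. Centring each library on its median took P2ry6 to -0.050 and Entpd1 to -0.0063. The centring moved the median of all genes by 0.09. Leaving out each library in turn gave 0 to 1 called genes of the set in AHSC and 0 to 7 in BMDM, 0 to 1 and 0 to 8 of the other purinergic genes, and 2 to 4 and 0 to 13 of the P2X7 route genes. The 1 in AHSC came without control replicate 1 for the set, and without control replicate 1 or auranofin replicate 2 for the other purinergic genes, and the 4 without control replicate 2. The upper BMDM counts came without auranofin replicate 2, where 1 treated library is assumed to vary like the controls. With a mean of at least 5 FPKM, 1 other purinergic gene was called in AHSC, beside 331 of all 8814 genes. The 2 P2X7 route calls in AHSC became 0 with no filter (49 of all 18645 genes called) and 0 without trend (129 of 12149). They became 0 without moderation, where 0 of all 12149 genes were called, and 1 under the 1.5-fold rule (70 of 12149). The cause of these shifts was not tested. With the replicate block no gene of the set was called in either table, and 3 route genes were called in AHSC, beside 282 of all 12149 genes. Deviations of same-numbered libraries correlated at 0.109 in AHSC and -0.0551 in BMDM across genes, so with 2 pairs the numbers were not taken as pairing. The block took genes at least 1.5-fold changed with an unadjusted p under 0.05 from 14 to 42 in BMDM. Precision was limited by 2 libraries a group, in BMDM most, where the auranofin libraries differed at least 2-fold from each other in 383 of 4245 genes.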
